A study of Mus musculus with 4 samples.

Results

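The genes followed here encode proteins of the cytoplasmic intermediate filaments: the simple-epithelium keratin genes Krt7, Krt8, Krt18 and Krt19, the vimentin and nestin genes Vim and Nes, the neurofilament genes Nefl, Nefm and Nefh, and the internexin gene Ina. They were taken by symbol as 10 of the 24428 genes in the count tables, and all 10 passed the filter on low counts. The list was drawn up with the difference between G784E and WT in these libraries already known, that is, they were chosen by filament type and selected on known log2 fold changes and calls of that contrast. The values of the 10 in it are therefore a description and support nothing beyond themselves.

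The RNA came from mouse embryonic stem cells of strain 129SvEv that were kept untreated in serum and LIF. All cells carried a wild-type Smarca4-GFP fusion. In the WT group the accompanying Smarca4-V5 fusion was wild-type as well, and in the G784E group it held the G784E change, so the mutant cells were heterozygous. Smarca4 is the ATPase of the BAF chromatin remodelling complex, and the study's title describes the change as dominant-negative. Each group had 2 RNA-seq libraries (replicates 1 and 2), 4 in all, and whether a group was 1 clone is not given in the sources used here. Gene counts ran from 6226145 to 10083442 per library, and a single count equalled 0.102 to 0.164 CPM, the count scaled by TMM to the size of its library. Smarca4 itself, with both alleles counted together, stood at 3868 and 3580 CPM in G784E and at 2423 and 2553 CPM in WT. The libraries of the groups did not overlap, but Smarca4 was not called by edgeR's quasi-likelihood test. Its log2 fold change (G784E over WT) was 0.58 (edgeR, Benjamini-Hochberg adjusted p = 0.119). The summed level of 10 stem cell markers was 3365 and 3390 CPM in G784E and 2739 and 3111 CPM in WT, and none of the 10 was called by edgeR's quasi-likelihood test, DESeq2 or limma-voom, with 1 (Nanog) at an unadjusted p under 0.05 in edgeR. Olfactory receptor genes, used as a gauge of reads from outside active genes, averaged 0.197 and 0.181 CPM per kilobase in the first replicates (G784E, then WT) and 0.0831 and 0.0555 CPM per kilobase in the second.

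Intermediate filaments are rope-like polymers that give cells mechanical strength, and each cell type builds them from its own subset of a large gene family. Keratins of simple epithelia assemble from a type I chain (Krt18 or Krt19) paired with a type II chain (Krt8 or Krt7), and in the early embryo they mark trophectoderm and the extraembryonic endoderm. Vimentin is the filament of mesenchymal and many cultured cells, nestin that of neural progenitors, and the neurofilament light, medium and heavy chains together with alpha-internexin fill the axons of neurons.

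Krt8, Krt18 and Krt19 were lower in G784E cells and Nefh and Ina were higher, while Krt7, Vim, Nes, Nefl and Nefm did not pass the test. Of the 10 genes, 3 (Krt8, Krt18 and Krt19) were called lower and 2 (Nefh and Ina) higher by edgeR at a Benjamini-Hochberg (BH) adjusted p under 0.05. Over all 15763 tested genes the share called was 2.56%, with 1.89% lower and 0.672% higher. The libraries of the groups did not overlap for 7 of the 10, against 38.8% of all tested genes. The median log2 fold change (G784E over WT) was -1.63 for the 4 keratin genes and 0.44 for the other 6, beside -0.0016 for all tested genes. Folds below are the fitted log2 fold change (in brackets, log2 change) turned to a ratio, and levels per group are mean ± SD with n = 2. SE is a standard error of the log2 fold change. It was taken as the absolute log2 fold change divided by the square root of edgeR's F statistic.

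**Figure D1:**
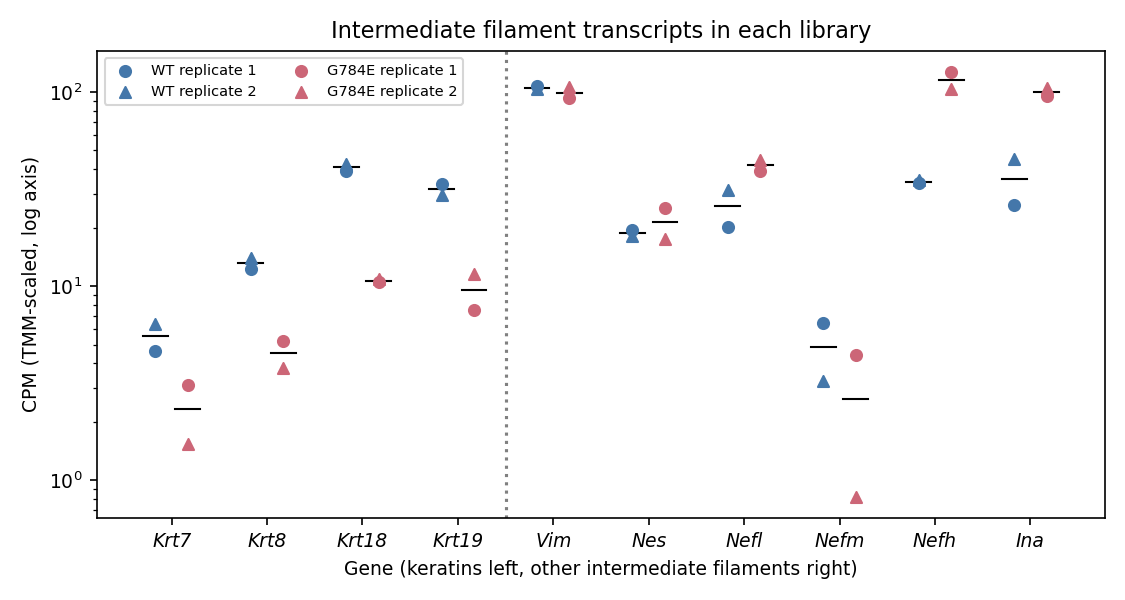
CPM of the 10 genes in each library on a log axis, WT in blue and G784E in red, with circles for replicate 1, triangles for replicate 2 and black lines for group means. The G784E libraries lie below the WT libraries for all 4 keratin genes and above them for Nefl, Nefh and Ina, and the groups overlap for Vim, Nes and Nefm.

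Krt18, the type I keratin that pairs with Krt8, was the most abundant of the 4 keratin transcripts per length in WT. It stood at 39.2 and 42.5 CPM in the WT libraries and at 10.5 and 10.8 CPM in the G784E libraries. The G784E values lay close together and far below both WT values. The log2 fold change was -1.94 (SE 0.25), a 3.83-fold lower level (edgeR, BH-adjusted p = 2.92e-05), and ranked 177th among 15763 genes ordered from the steepest decrease. Krt19, a small type I keratin of ductal and embryonic epithelia, stood at 33.5 and 29.6 CPM in WT and at 7.53 and 11.5 CPM in G784E. The groups did not overlap, and the G784E libraries differed more from each other than they did for Krt18. Its log2 fold change was -1.71 (SE 0.28; edgeR, BH-adjusted p = 0.000464). Krt8, the type II partner, stood at 12.3 and 13.9 CPM in WT and at 5.24 and 3.77 CPM in G784E. The groups again did not overlap, at a lower level that rests on 32 counts in each G784E library and 93 and 137 counts in WT. Its log2 fold change of -1.55 (SE 0.39; edgeR, BH-adjusted p = 0.0267) did not pass without WT replicate 1 (-1.64, BH-adjusted p = 0.157), without WT replicate 2 (-1.42, BH-adjusted p = 0.481), with upper-quartile scaling (-1.54, BH-adjusted p = 0.0635) or in DESeq2 (-1.54, BH-adjusted p = 0.0948). Krt7, the other type II chain, was the scarcest keratin of the 4, at 4.62 and 6.40 CPM in WT against 3.11 and 1.53 CPM in G784E. Those values come from 13 to 63 counts per library, and the log2 fold change of -1.26 (SE 0.69) did not pass (edgeR, BH-adjusted p = 0.532). Krt18, Krt19, Nefh and Ina kept their call in each of the 12 alternative analyses run.

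Krt8 and Krt18 are next to each other in the genome, head to head on opposite strands. Their upstream windows are shown because these genes fell together. Each window is the 250 bases before the annotated start (RefSeq, GRCm38.p6), at chr15:102004343-102004592, minus strand, for Krt8 and at chr15:102027966-102028215, plus strand, for Krt18. Capitals mark a match on either strand to the TATA box TATAAA, the CCAAT box CCAAT, the GC box GGGCGG, the GATA motif AGATAA or the AP-1 motif TGANTCA.
Krt8: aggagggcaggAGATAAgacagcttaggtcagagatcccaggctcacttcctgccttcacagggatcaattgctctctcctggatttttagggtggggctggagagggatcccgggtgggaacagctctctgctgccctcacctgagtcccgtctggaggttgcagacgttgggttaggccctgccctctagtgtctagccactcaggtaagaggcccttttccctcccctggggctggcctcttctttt
Krt18: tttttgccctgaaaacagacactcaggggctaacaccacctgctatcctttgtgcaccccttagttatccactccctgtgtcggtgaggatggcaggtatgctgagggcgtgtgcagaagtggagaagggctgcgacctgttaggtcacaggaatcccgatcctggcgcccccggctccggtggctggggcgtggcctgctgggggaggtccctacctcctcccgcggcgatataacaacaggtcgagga
The Krt8 window held 1 match, an AGATAA that begins 239 bases before the start, and the Krt18 window held none of the 5 motifs. AGATAA was found in 9.99% of the 32851 windows of the same length in the table. The Krt8 window had 3 CpG dinucleotides and the Krt18 window 12, beside a median of 6 over all windows, at a GC content of 58% and 60.4% against a median of 52.4%.

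Among the genes that flank this keratin pair, the epidermal keratin gene Krt78 beyond Krt8 stood at 2.15 ± 0.88 CPM in WT against 0.811 ± 0.685 CPM in G784E and did not pass (log2 change -1.35, SE 1.26; edgeR, BH-adjusted p = 0.845). Eif4b, a translation initiation factor gene beyond Krt18, stood at 1068 ± 7.14 CPM in WT against 1033 ± 19.4 CPM in G784E (log2 change -0.05, SE 0.19; edgeR, BH-adjusted p = 0.999).

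Because keratin chains assemble as type I and type II pairs, the Krt18 to Krt8 ratio of counts per kilobase was taken within each library. It was 4.35 and 4.17 in WT and 2.73 and 3.92 in G784E. More Krt18 than Krt8 was counted per length in all 4 libraries. The ratio in both G784E libraries was below that in both WT libraries, but it rests on 32 Krt8 counts in each G784E library. Whether this ratio differed between the groups was not tested. With Krt19 and Krt7 included, the type I to type II ratio per kilobase was 6.56 and 5.59 in WT. In G784E it was 3.51 and 6.47, so the groups overlapped. The Krt19 to Krt18 ratio, likewise per kilobase, was 0.780 and 0.635 in WT and 0.655 and 0.971 in G784E, so the groups overlapped.

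Nefh, the neurofilament heavy chain, rose in G784E cells. It stood at 33.8 and 35.0 CPM in WT and at 127 and 104 CPM in G784E, from 256 to 884 counts per library. Both G784E values lay far above both WT values. The log2 fold change was 1.74 (SE 0.21), a 3.35-fold higher level (edgeR, BH-adjusted p = 1.13e-05), and ranked 58th among the increases. Ina, alpha-internexin, a neurofilament subunit of early neurons, stood at 26.3 and 45.4 CPM in WT and at 95.9 and 105 CPM in G784E. The WT libraries differed from each other, and both lay below the G784E libraries. Its log2 fold change was 1.48 (SE 0.24), 2.79-fold higher (edgeR, BH-adjusted p = 0.000375), and ranked 129th among the increases. It was 1.14 without WT replicate 1 and 1.96 without WT replicate 2, past the threshold in both cases.

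Nefl, the light chain on which neurofilaments are built, stood at 20.2 and 31.3 CPM in WT and at 39.1 and 44.8 CPM in G784E. The groups did not overlap, and the log2 fold change of 0.70 (SE 0.24) did not pass (edgeR, BH-adjusted p = 0.175). Nefm, the medium chain, had values of 6.47 and 3.25 CPM in WT against 4.42 and 0.825 CPM in G784E, from 7 to 49 counts per library. Replicate 1 was the higher library in both groups, as it was for the olfactory receptor genes, and the groups overlapped (log2 change -0.91, SE 0.79; edgeR, BH-adjusted p = 0.81). The part of such background reads in Nefm was not tested. Without G784E replicate 1 the Nefm value was -2.54 and without G784E replicate 2 it was -0.20, neither past the threshold. Of the neurofilament chains, Nefh was called higher, while Nefl, with a value above 0, and Nefm, with a value below 0, did not pass. Whether Nefh differed from Nefl or Nefm in its response was not tested. The Nefh to Nefl ratio of counts per kilobase was 1.42 and 0.948 in WT and 2.74 and 1.97 in G784E, higher in both G784E libraries. The Nefh to Ina ratio was 1.04 and 0.626 in WT and 1.07 and 0.805 in G784E, so the groups overlapped.

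The window before the start of Ina is shown as that of a filament gene that rose. It lies at chr19:47014431-47014680, plus strand (RefSeq, GRCm38.p6), and capitals mark the same 5 motifs.
Ina: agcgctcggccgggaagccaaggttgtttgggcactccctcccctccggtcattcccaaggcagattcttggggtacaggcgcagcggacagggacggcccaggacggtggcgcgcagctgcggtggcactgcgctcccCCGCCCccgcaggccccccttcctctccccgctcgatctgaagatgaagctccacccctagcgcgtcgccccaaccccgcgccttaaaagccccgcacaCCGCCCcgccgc
This window held 2 GC boxes on the opposite strand, beginning 111 and 12 bases before the start. GGGCGG was found in 32.7% of all windows. The GC content of the Ina window was 70.8%, with 25 CpG dinucleotides. Promoter entries were matched for 6 of the 10 genes (Krt7, Krt8, Krt18, Vim, Nes and Ina). No AP-1 match lay in any of the 6 windows, against 6.75% of all windows, and Vim was the gene of the 6 with a TATAAA, which 12.4% of all windows held.

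The genes beside Nefh and Ina did not pass the test. Thoc5 and Ap1b1, which flank Nefh, had log2 fold changes of 0.24 (SE 0.20; edgeR, BH-adjusted p = 0.807) and 0.37 (SE 0.22; BH-adjusted p = 0.592). Nt5c2 and Pcgf6, which flank Ina, had log2 fold changes of 0.10 (SE 0.25; edgeR, BH-adjusted p = 0.994) and 0.29 (SE 0.21; BH-adjusted p = 0.727). Exons of Nt5c2 and Ina overlap on opposite strands in the GENCODE annotation, as do those of Nefl and Nefm, and Krt7 and Krt8 each overlap an annotated non-coding RNA. Without a stated strand setting, reads from such overlaps cannot be told apart. Nt5c2 stood at 24.7 ± 0.418 CPM in WT against 26.3 ± 5.56 CPM in G784E. The part of Nt5c2 reads in the Ina values was not tested.

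Vim and Nes did not pass. Vim stood at 107 and 103 CPM in WT and at 92.9 and 106 CPM in G784E. The groups overlapped, with a log2 fold change of -0.08 (SE 0.20; edgeR, BH-adjusted p = 0.994). Nes stood at 19.4 and 18.1 CPM in WT and at 25.2 and 17.4 CPM in G784E, also with overlap (log2 change 0.18, SE 0.27; edgeR, BH-adjusted p = 0.956). Without G784E replicate 1, Vim was at 0.00014 and Nes turned to -0.11. The endocytic receptor gene Cubn lies in the same stretch as Vim, with Trdmt1 between them, and was picked out here after its value was seen. Cubn fell from 378 ± 40.6 to 14.7 ± 1.56 CPM (log2 change -4.68, SE 0.24; edgeR, BH-adjusted p = 1.02e-11). Trdmt1, a tRNA methyltransferase gene, stood at 10.6 ± 0.499 CPM in WT against 11.8 ± 4.85 CPM in G784E and did not pass (edgeR, BH-adjusted p = 0.994). Gpatch4, a G-patch domain gene near Nes that was also picked out after its value was seen, stood at 37.4 and 57.0 CPM in WT against 97.2 and 77.0 CPM in G784E and was called higher (log2 change 0.88, SE 0.23; edgeR, BH-adjusted p = 0.0345). The Gpatch4 call was lost in DESeq2 (0.88, BH-adjusted p = 0.0881), without G784E replicate 1 (0.70, edgeR, BH-adjusted p = 0.0958), without WT replicate 1 (0.60, BH-adjusted p = 0.825) and without Rn45s (0.85, BH-adjusted p = 0.0582).

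**Figure D2:**
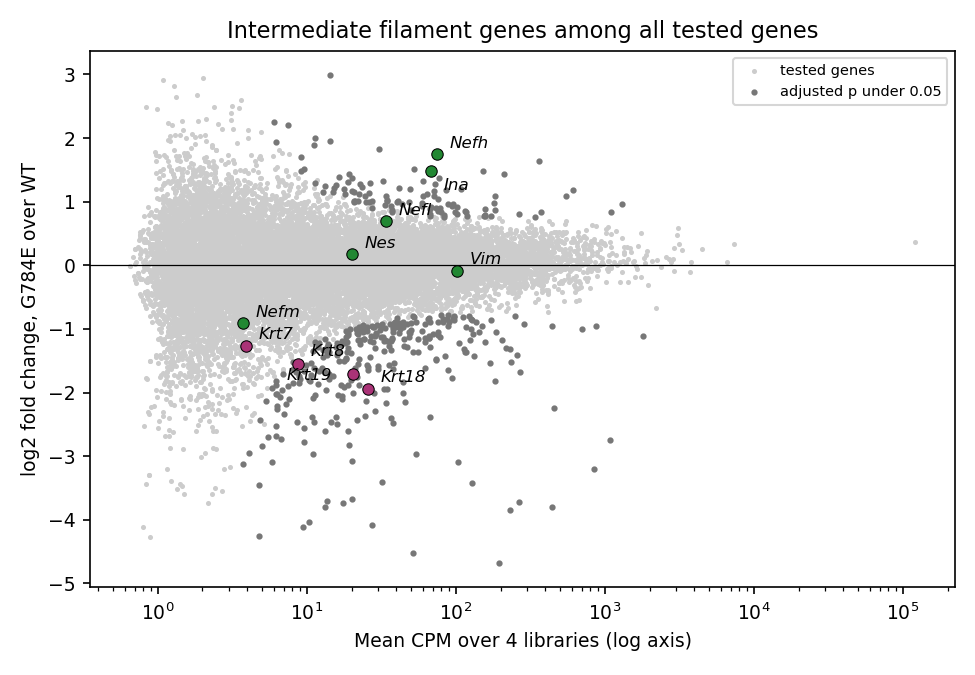
Log2 fold change (G784E over WT) against mean CPM over the 4 libraries (log axis) for 15763 tested genes, with genes past the threshold in dark grey, keratin genes in purple and the other 6 genes in green. Nefh and Ina stand at 1.74 and 1.48, the keratin genes between -1.94 and -1.26, and Vim and Nes near 0.

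The order of the 10 transcripts by CPM per kilobase of transcript differed between the groups. In WT the order of mean levels was Vim (48.0), Krt18 (28.4), Krt19 (20.0), Ina (11.1), Nefh (8.62), Nefl (7.61), Krt8 (6.69), Nes (3.06), Krt7 (1.35) and Nefm (1.32). Of these neighbours, Ina and Nefh, Nefh and Nefl, Nefl and Krt8, and Krt7 and Nefm overlapped between libraries. In G784E the order by the same measure was Vim (45.3), Ina (31.0), Nefh (28.9), Nefl (12.4), Krt18 (7.41), Krt19 (6.05), Nes (3.48), Krt8 (2.30), Nefm (0.712) and Krt7 (0.567). There, Ina and Nefh, Krt18 and Krt19, and Nefm and Krt7 overlapped. Krt18 and Krt19 thus stood above Ina, Nefh and Nefl in WT and below them in G784E. Each of the 10 was above the olfactory receptor average per kilobase in every library. Nefm and Krt7 in G784E replicate 2 stood at 0.224 and 0.374 CPM per kilobase against an average of 0.0831, and Krt7 in G784E replicate 1 at 0.759 against 0.197.

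Within the counts of these 10 genes, the 4 keratin genes made up 29.6% (95% Wilson interval 27.7% to 31.5%) and 28.1% (26.6% to 29.7%) in the WT libraries. In the G784E libraries they made up 6.41% (5.52% to 7.44%) and 6.83% (6.03% to 7.72%). Nefl, Nefm, Nefh and Ina together made up 28.6% (26.8% to 30.5%) and 35.0% (33.3% to 36.6%) in WT and 64.8% (62.9% to 66.7%) and 62.8% (61.2% to 64.4%) in G784E. The intervals cover counting error only. Keratin counts per neurofilament and internexin count were 1.03 and 0.805 in WT and 0.0990 and 0.109 in G784E. The mean log2 ratio was -3.14 in G784E minus WT, given as a description because the genes were chosen with this contrast in view, and the libraries of the groups did not overlap. With Vim and Nes added to the denominator the difference was -2.52, and as a mean of log2 CPM over genes, which gives Krt7 and Nefm the same weight as the others, it was -2.33.

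**Figure D3:**
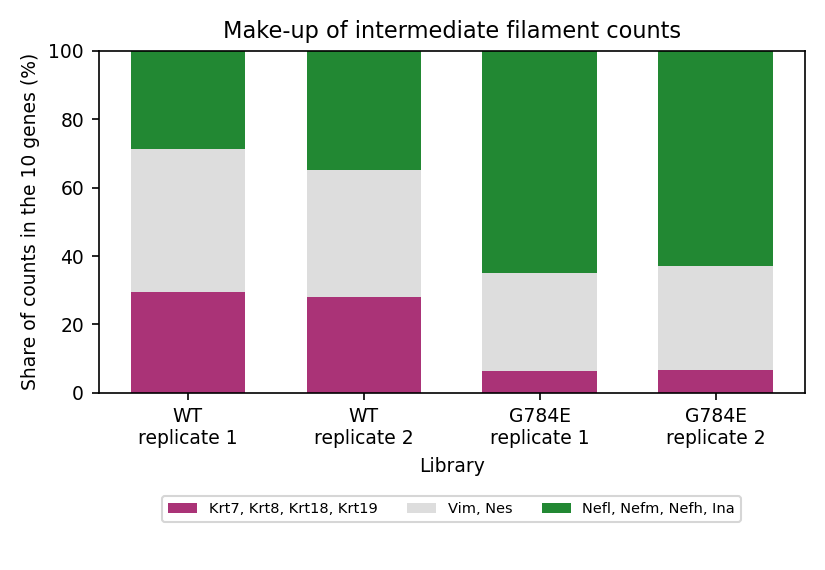
Share of the counts of the 10 genes (%) held by the 4 keratin genes, by Vim and Nes, and by Nefl, Nefm, Nefh and Ina, as stacked bars for each library. The keratin part is 29.6% and 28.1% in WT and 6.41% and 6.83% in G784E.

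Keratins of other epithelia were scarce. Of 44 stratified-epithelium and hair keratin genes in the tables, 20 passed the filter on low counts and none was called by edgeR, DESeq2 or limma-voom, with 1 (Krt77) at an unadjusted p under 0.05 and a median log2 fold change of -0.53 beside -0.0016 for all tested genes. The highest of them by mean level was the epidermal keratin gene Krt10, at 5.42 ± 0.921 CPM in WT against 3.85 ± 1.05 CPM in G784E (log2 change -0.48, SE 0.59; edgeR, BH-adjusted p = 0.921). Krt9, a keratin of thick skin, followed at 4.89 ± 4.48 and 3.09 ± 4.20 CPM (log2 change -0.69, SE 0.95; edgeR, BH-adjusted p = 0.945). Its value was -5.21 without G784E replicate 1 (BH-adjusted p = 0.00999), where 1 count was left in that group, and turned to 0.25 without G784E replicate 2 and 0.79 without WT replicate 1. Including the simple keratin genes Krt20, Krt23 and Krt80, the 47 listed keratins outside the 10 genes summed to 107 and 35.4 CPM in WT against 65.5 and 25.1 CPM in G784E. Replicate 1 was higher than replicate 2 for 44 of the 47 in WT and for 35 of the 47 in G784E, the same direction as the olfactory receptor reads, whose part in these values was not tested. Krt80 was the 1 of the 3 further simple keratins to pass the filter, at 0.762 ± 0.790 CPM in WT against 1.04 ± 1.31 CPM in G784E (log2 change 0.43, SE 1.65; edgeR, BH-adjusted p = 0.999).

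None of the 4 other type III and type IV filament genes and none of 4 tested genes for lamins and lens filaments was called by edgeR, DESeq2 or limma-voom, nor did any have an unadjusted p under 0.05 in edgeR. Synm, which encodes the large filament protein synemin, stood at 23.6 ± 0.223 CPM in WT against 23.8 ± 0.530 CPM in G784E. Des, the muscle filament desmin, stood at 4.55 ± 1.41 and 2.31 ± 0.435 CPM (log2 change -0.98, SE 0.75; edgeR, BH-adjusted p = 0.759). The nuclear lamin gene Lmnb1 stood at 330 ± 26.1 and 334 ± 4.30 CPM, and Lmnb2 at 33.7 ± 0.592 and 46.0 ± 8.56 CPM (log2 change 0.44, SE 0.23; edgeR, BH-adjusted p = 0.47). The medians of these lists were 0.10 and 0.23.

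Among 15 genes for proteins that anchor or link intermediate filaments, 1 was called lower and none higher, with a list median of -0.06. limma-voom called 2 of the list and DESeq2 1, and 5 (Dsp, Eppk1, Jup, Pkp2 and Tchp) had an unadjusted p under 0.05 in edgeR. The called gene was Dsp, desmoplakin, which ties keratin filaments to desmosomes. Dsp stood at 151 and 140 CPM in WT and at 40.7 and 44.8 CPM in G784E. The groups were widely separated, with a log2 fold change of -1.77 (SE 0.21), 3.40-fold lower (edgeR, BH-adjusted p = 7.02e-06), and the call held in each of the 12 alternatives. The desmosome genes Pkp2, plakophilin (log2 change -0.67, SE 0.21; edgeR, BH-adjusted p = 0.0957), and Jup, plakoglobin (-0.55, SE 0.20; BH-adjusted p = 0.208), and the plakin gene Eppk1 (-0.70, SE 0.22; BH-adjusted p = 0.103) had values below 0, with no overlap between the groups, and did not pass. Tchp, trichoplein, a keratin-binding protein gene, had a value above 0, likewise with no overlap (log2 change 0.68, SE 0.27; edgeR, BH-adjusted p = 0.266). These 4 were picked out after their values were seen. The plakin genes Dst and Macf1, giant linkers between filament systems, stood at 1212 ± 191 and 1058 ± 115 CPM in WT and 1218 ± 137 and 1017 ± 152 CPM in G784E, with log2 fold changes of 0.01 (SE 0.20) and -0.06 (SE 0.20) that did not pass (edgeR, BH-adjusted p = 1 and 0.999).

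**Figure D4:**
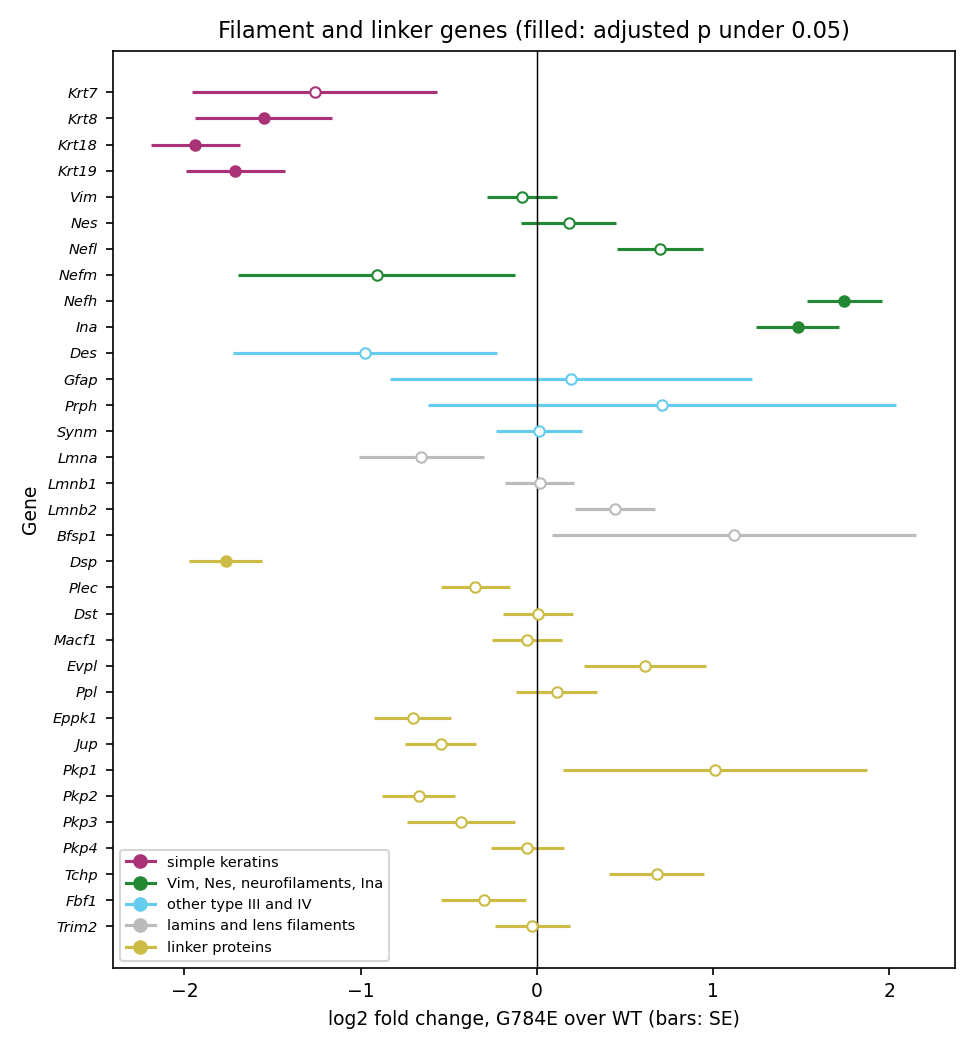
Log2 fold change (G784E over WT) with SE, filled where the edgeR adjusted p is under 0.05. Shown are the 10 genes and the tested genes for other type III and type IV filaments, lamins, lens filaments and linkers. Keratin genes outside the 10 are not shown. Filled points are Krt8, Krt18, Krt19 and Dsp to the left of 0 and Nefh and Ina to the right.

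Some markers of early cell types that make keratins were lower in the same G784E libraries. In bulk RNA, fewer cells of a type and less RNA per cell cannot be told apart. Of 17 primitive endoderm markers, 14 passed the filter, 11 were called lower and none higher, with a median log2 fold change of -3.31, and the summed level was 5317 and 5616 CPM in WT against 601 and 599 CPM in G784E. Amn and Apoa1 were at 0 counts in at least 1 library. Sparc, a matrix glycoprotein of this lineage, had a log2 fold change of -2.75 (SE 0.20), Lama1 of -3.21 (SE 0.21), Lrp2 of -3.84 (SE 0.23), Col4a1 of -3.80 (SE 0.22) and the endocytic adaptor gene Dab2 of -3.41 (SE 0.23). Of the 3 that did not pass, the highest by mean level were Hnf4a (log2 change -2.32, SE 0.81; edgeR, BH-adjusted p = 0.174) and Foxa2 (-3.01, SE 1.16; BH-adjusted p = 0.241). The third, the alpha-fetoprotein gene Afp, had a value above 0 from 4 to 19 counts per library, with overlap between the groups (log2 change 0.79, SE 1.33; edgeR, BH-adjusted p = 0.969). Ttr, the transthyretin gene, was too low to be tested, at 0.528 and 0.406 CPM in WT against 0.818 and 0.942 CPM in G784E, from 4 to 8 counts per library. Part of this list had been described in these libraries before it was written down, so its direction is no independent evidence. Of 12 trophectoderm markers, all tested, 3 were called lower and none higher (median -0.99), and the summed level was 170 and 141 CPM in WT against 96.2 and 80.5 CPM in G784E. These were Tead4, a transcription factor of the trophoblast lineage (37.8 ± 3.90 to 12.7 ± 0.51 CPM; edgeR, BH-adjusted p = 0.00038), the matrix gene Tinagl1 (22.9 ± 11.1 to 3.66 ± 1.48 CPM; BH-adjusted p = 0.000146) and Eomes (16.5 ± 0.526 to 4.92 ± 1.87 CPM; BH-adjusted p = 0.00642). The Eomes call was lost without WT replicate 2 (-1.66, edgeR, BH-adjusted p = 0.131). The trophoblast factor genes Tfap2c (log2 change 0.65, SE 0.24; edgeR, BH-adjusted p = 0.215) and Hand1 (-0.68, SE 0.28; BH-adjusted p = 0.297) were the highest of the others. In edgeR, 6 of the list (Eomes, Tfap2c, Hand1, Tead4, Plet1 and Tinagl1) had an unadjusted p under 0.05, Tfap2c with a value above 0. DESeq2 called 3 of the list and limma-voom 4. Cdx2 (0.13), Gata2 (0.16) and Tfap2a (0.15) also had values above 0, with overlap between the groups, and did not pass. Cdx2 had 3 to 21 counts per library. All markers of this list but these and Tfap2c had values below 0. The part of either cell type in the keratin values was not tested.

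Of 12 general epithelial genes tested, 1 was called lower and none higher, with a median of -0.33 and a summed level of 1644 and 1788 CPM in WT against 1464 and 1543 CPM in G784E. Cldn6, a tight junction claudin of embryonic epithelia, fell from 163 ± 8.04 to 65.3 ± 10.4 CPM (log2 change -1.32, SE 0.21; edgeR, BH-adjusted p = 0.00032). Cdh1, the epithelial cadherin also made by stem cells, stood at 926 ± 48.3 and 932 ± 33.1 CPM, and Epcam, an epithelial adhesion gene, at 266 ± 0.183 and 209 ± 18.6 CPM (log2 change -0.35, SE 0.20; edgeR, BH-adjusted p = 0.557). In the mesenchyme and fibroblast list, whose cells use vimentin, none of 14 tested genes was called by edgeR, DESeq2 or limma-voom or had an unadjusted p under 0.05 in edgeR (median 0.06), and the summed level was 1238 and 1312 CPM in WT against 1293 and 1386 CPM in G784E. Fn1, fibronectin, stood at 1139 ± 69.2 and 1183 ± 79.6 CPM and Col1a1 at 32.4 ± 10.04 and 44.5 ± 10.9 CPM, neither past the threshold.

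Beside Nefh and Ina, markers of neurons were read. Of 20 of them, 16 passed the filter, 1 was called higher and none lower, with a median log2 fold change of 0.23. The 1 was Stmn2, a microtubule regulator of growing axons, at 122 and 136 CPM in WT against 218 and 254 CPM in G784E (log2 change 0.87, SE 0.20; edgeR, BH-adjusted p = 0.0146). Stmn2 did not pass without G784E replicate 2 (0.69, edgeR, BH-adjusted p = 0.116), WT replicate 1 (0.79, BH-adjusted p = 0.317) or WT replicate 2 (0.98, BH-adjusted p = 0.0755). In edgeR, 2 genes of the list (Stmn2 and Uchl1) had an unadjusted p under 0.05. Uchl1, picked out after its value was seen, stood at 5.94 and 5.89 CPM in WT against 7.20 and 14.4 CPM in G784E. It did not pass (log2 change 0.88, SE 0.41, edgeR, BH-adjusted p = 0.401). The summed level of the list was 255 and 232 CPM in WT against 349 and 364 CPM in G784E. With Stmn2 left out, the other 19 summed to 132 and 96.4 CPM in WT against 130 and 110 CPM in G784E, and the groups overlapped. Stmn2 was left out as the called gene, after its value was seen, which by itself brings the sums of the groups nearer. Elavl3, an RNA-binding protein of neurons, and Kif5a, a neuronal kinesin that moves neurofilaments, had log2 fold changes of 0.28 (SE 0.29; edgeR, BH-adjusted p = 0.879) and -0.57 (SE 0.31; BH-adjusted p = 0.527).

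Of 12 neural progenitor markers, 5 passed the filter and none was called by edgeR, DESeq2 or limma-voom, with 1 (Sox1) at an unadjusted p under 0.05 (median 0.46), with Hes5 and Sox3 at 0 counts in at least 1 library. Their summed level was 75.8 and 61.9 CPM in WT against 82.6 and 54.4 CPM in G784E. Sox1, picked out after its value was seen, stood at 3.18 ± 1.48 CPM in WT against 7.71 ± 0.258 CPM in G784E, with no overlap. It did not pass (log2 change 1.29, SE 0.55, edgeR, BH-adjusted p = 0.32). Olig2 stood at 51.9 ± 3.18 and 40.5 ± 5.93 CPM and Msi1 at 5.31 ± 2.77 and 7.32 ± 3.53 CPM, neither past the threshold. Rest, the repressor of neuronal genes in other cells, stood at 654 ± 77.9 CPM in WT against 684 ± 50.3 CPM in G784E (log2 change 0.06, SE 0.20; edgeR, BH-adjusted p = 0.997). Its co-repressor gene Sin3a was at 374 ± 14.4 and 421 ± 80.3 CPM, and none of 9 tested genes for Rest and its partners was called by edgeR, DESeq2 or limma-voom, with 1 (Rcor2) at an unadjusted p under 0.05 (median 0.10). The part of neuronal or progenitor cells in the Nefh and Ina values was not tested.

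**Figure D5:**
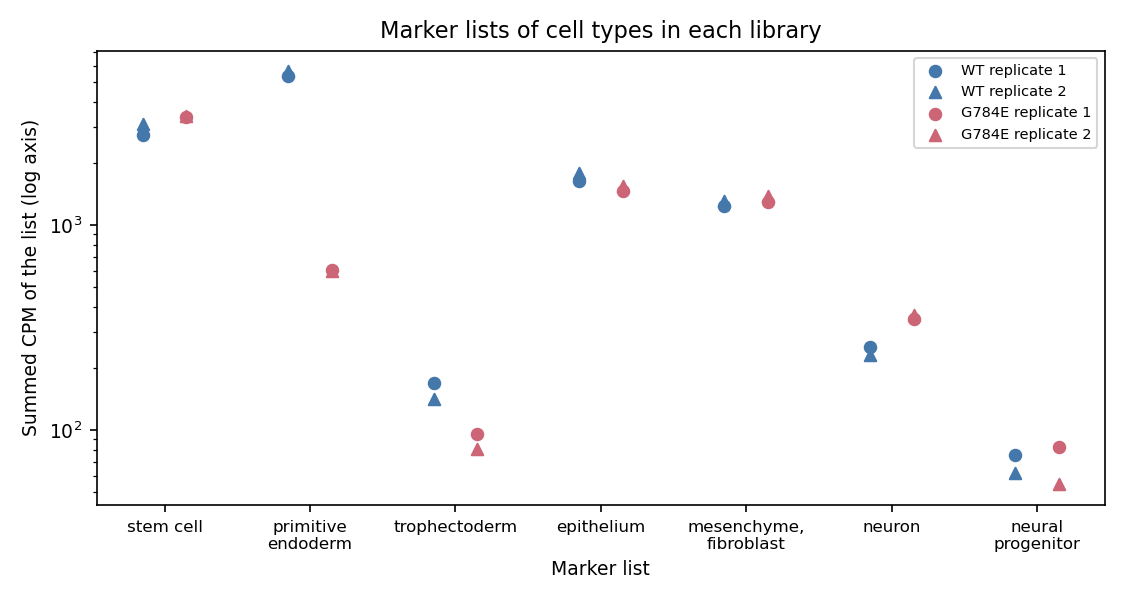
Summed CPM of each marker list in each library on a log axis, WT in blue and G784E in red, circles for replicate 1 and triangles for replicate 2. The primitive endoderm sum is 5317 and 5616 in WT against 601 and 599 in G784E, and the sums of the neural progenitor and the mesenchyme and fibroblast lists overlap between the groups.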

How the data were processed

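The authors deposited raw gene counts, 1 table for each RNA-seq library. The submitters' processing notes name build mm9 and the tools CASAVA 1.8.2, Bowtie2 2.1.0, HTSeq and DESeq2; annotation, counting mode and strand are not given in the sources at hand. Summary rows, 83.3% to 88.7% of each table, were left out, and reads not placed uniquely were 55.4% to 61.8%. A floor of 3 counts was 0.305 to 0.491 CPM.

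The groups were compared with edgeR 4.0.16 (R 4.3.3) by its quasi-likelihood test on group alone, with TMM scaling, filterByExpr (minimum count 10, total 15; 15763 of 24428 genes kept), 2 residual degrees of freedom and Benjamini-Hochberg adjustment over all tested genes at 0.05. The members and lists were chosen with earlier results of these data known. Named genes were the 10 members and, with predicted-gene and clone symbols left out, the 5 nearest to Krt18 and to Nefh in log2 CPM. Of each of 13 further lists, up to 6 called genes and the 2 highest that did not pass were also named. Of the stem cell list these were Utf1 and Tdgf1, at means of 1018 and 587 CPM in G784E and 845 and 516 CPM in WT. The labels do not name separate cultures for the replicates, so p-values measure only the spread between libraries, which may be technical. Chi-square per degree of freedom between replicates was 12.4 (G784E) and 7.89 (WT), so no library was a copy of another.

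Levels per kilobase used the longest coding transcript of GENCODE M21. That annotation is of GRCm38, not mm9, and was used for lengths, overlaps and gene order only; promoter windows are RefSeq's for GRCm38.p6. Other settings tried were scaling by RLE or upper quartile, the table unfiltered or filtered at 1 CPM in 2 libraries and 50 counts, DESeq2 1.42.0, limma-voom (limma 3.58.1), a block for the replicate number, omission of each library and, chosen after seeing the data, omission of Rn45s. Where a group kept a lone library, its spread was assumed equal to that of the other group. The procedure was tested on simulated counts.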

Additional observations from a re-analysis of the deposited data

How the results depend on the processing

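The count of genes lower in G784E, 298, lay between 150 and 579 with a single library left out, and the count higher, 106, between 26 and 161, with the lowest values without WT replicate 1 and the highest without G784E replicate 2. limma-voom called 186 higher. With the replicate number as a block, edgeR called 658 lower and 546 higher, and Nefl passed (log2 change 0.72, BH-adjusted p = 0.0282), as did Foxa2 (-3.02, BH-adjusted p = 0.0243) and Hnf4a (-2.23, BH-adjusted p = 0.0267). The labels do not say that a number marks a shared culture or day. Over 15763 genes the deviation of replicate 1 from its group mean correlated at r = 0.487 between the groups, which 2 groups of 2 cannot turn into a pairing. The log2 keratin to neurofilament difference, -3.14, ran from -3.32 to -2.96 with a library left out, was -2.52 with Vim and Nes added and -2.33 as a mean over genes. Hand1 passed without G784E replicate 1 (-1.03, BH-adjusted p = 0.044). P3h2 also missed the threshold with upper-quartile scaling, the stricter filter, DESeq2 and limma-voom (-1.94, -1.94, -1.92 and -1.89).

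Of 701 values of single genes under alternatives, 641 kept direction and side of the threshold. Another 30 changed sign, all of genes past the threshold in neither analysis, and the cause was not tested. With no filter and without Rn45s, these were Synm (-0.026 and -0.023), Lmnb1 (-0.023 and -0.018), Dst (-0.027 and -0.023) and Cdh1 (-0.027 and -0.024), and with limma-voom Krt80 (-0.11). With a library left out, values ran from -0.25 to 0.00014 for Vim, -0.11 to 0.36 for Nes, -0.35 to 2.22 for Krt80, -5.21 to 0.79 for Krt9, -0.085 to 0.029 for Synm, -0.073 to 0.13 for Lmnb1, -0.18 to 0.21 for Dst, -0.29 to 0.088 for Macf1, -0.23 to 0.59 for Elavl3, -0.13 to 1.10 for Msi1, -0.085 to 0.22 for Rest, -0.11 to 0.35 for Sin3a, -0.099 to 0.093 for Cdh1 and -0.089 to 0.15 for Fn1. DESeq2 gave no adjusted p for 5 named genes. Of the 10 filament genes, Krt7 and Nefm had the fewest counts (7 to 63 per library); Krt80 had 1 to 12 and Foxa2 3 to 37.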

Other observations

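Distances of mean-centred log2 CPM over the 4 libraries covered tested genes at 5 CPM or more, without predicted-gene and clone symbols. Nearest to Krt18 were Loxl2, Amot, Tgfbr3, Aim2 and P3h2. They follow Krt18 in the same libraries by the way they were picked, so their calls add nothing to it. Loxl2, a lysyl oxidase that crosslinks matrix proteins, stood at 48.6 and 56.9 CPM in WT against 14.2 and 13.2 CPM in G784E (distance 0.135). Amot, angiomotin, a junction-associated regulator of the Hippo pathway, stood at 66.2 and 76.0 CPM in WT against 16.5 and 18.6 CPM in G784E (distance 0.135). Tgfbr3, the co-receptor betaglycan, stood at 22.0 ± 0.481 and 6.37 ± 0.015 CPM. The DNA sensor gene Aim2 (11.9 ± 0.406 to 3.17 ± 0.148 CPM) and the collagen prolyl hydroxylase gene P3h2 (9.33 ± 0.306 to 2.42 ± 0.412 CPM) did not pass without WT replicate 1 (edgeR, BH-adjusted p = 0.181 and 0.302) or WT replicate 2 (BH-adjusted p = 0.235 and 0.507).

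Nearest to Nefh by the same measure were Clca3b (distance 0.217), Rragd (0.225), Inhbb (0.249), Dnmt3a (0.365) and Erf (0.377). These genes likewise follow Nefh by the way they were picked, so their calls add nothing to it. Erf, a repressor of the ETS family, rose from 42.3 and 44.1 CPM in WT to 123 and 100 CPM in G784E (log2 change 1.37, SE 0.21; edgeR, BH-adjusted p = 0.000232). Like Nefh, it was higher in replicate 1 of G784E than in replicate 2, a likeness that its choice by nearness to Nefh favours. Rragd, a Rag GTPase of nutrient sensing, stood at 11.8 and 14.8 CPM in WT against 53.8 and 41.1 CPM in G784E. Clca3b did not pass without G784E replicate 1 (1.40, edgeR, BH-adjusted p = 0.108), WT replicate 1 (1.70, BH-adjusted p = 0.0913) or WT replicate 2 (1.71, BH-adjusted p = 0.123). Beside Nefl and Nefm lies Dock5, a guanine nucleotide exchange factor gene that was picked out after its value was seen. Dock5 stood at 223 ± 27.01 CPM in WT against 123 ± 20.6 CPM in G784E (log2 change -0.86, SE 0.21, edgeR, BH-adjusted p = 0.0198). This call was lost without G784E replicate 1 (-0.71) and without WT replicate 2 (-0.71). Of the other genes near Nefl and Nefm, Kctd9, Adam7 and Adam28 did not pass.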
